A study of Mus musculus with 4 samples.

Results

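Tetraspanins are small membrane proteins that cross the membrane 4 times and gather integrins, immunoglobulin superfamily proteins and other receptors into patches of the cell surface and of endosomes. Values are described here for 7 of their genes, Cd81, Cd9, Cd151, Cd53, Cd37, Cd63 and Cd82, in microglia of the mouse retina. The genes were taken by symbol, and all 7 were found among the 15586 genes of the deposited table. The set was chosen by family and with the FPKM difference of Cd81 between knockout and control already known. The comparison of knockout with control therefore serves as a description for these 7 genes, and no test of it is offered as support.

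RNA came from retinal microglia, the resident macrophages of the retina, of 2-month-old mice, sorted by EYFP fluorescence with 200 cells per library. All mice carried a tamoxifen-inducible Cre at the Cx3cr1 locus (Cx3cr1CreER/+), which is active in microglia and also in other cells that use Cx3cr1, and floxed Tak1 alleles. TAK1 is a kinase that relays cytokine and innate immune signals towards NF-kB and MAP kinases. The 2 control libraries came from mice given corn oil intraperitoneally on 5 consecutive days, and their genotype label reads Tak1fl/fl. The 2 knockout libraries came from mice given tamoxifen at 75 mg/kg on the same schedule, and their genotype label reads Tak3fl/fl although their title and protocol name Tak1. Deletion and tamoxifen cannot be told apart, since no group had the drug alone. No label says that libraries of a group came from separate animals, so spreads and p-values may reflect technical variation.

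Values are FPKM, in which fragment numbers are divided by the length of the transcript and by the size of the library, so that they allow levels of different genes to be compared. Reads per library are unknown. Summed FPKM ran from 812009 to 969700, and the knockouts had more genes at 1 FPKM or more (5628 and 6055) than the controls (3777 and 4481). Of 7823 genes whose mean reached 1 FPKM, 32.1% had over 90% of their summed FPKM in 1 library, so a value near 0 does not show a silent gene. The targeted gene, Map3k7, read at most 0.08 FPKM in every library and could not check the labels. All 13 microglia markers in the table had a mean of at least 1 FPKM. In bulk samples fewer cells of a type and less RNA per cell cannot be told apart.

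CD81 and CD9 are close relatives on the cell surface that bind integrins and immunoglobulin superfamily partners and mark extracellular vesicles. CD151 holds laminin-binding integrins, and CD82 sits on the surface and on endosomes. CD63 cycles between the surface and late endosomes and lysosomes, where it is abundant. CD37 and CD53 are largely restricted to blood-derived cells, and microglia are known for high Cd81, Cd9, Cd63 and Cd53.

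Promoter sequences from RefSeq (GRCm38.p6) were matched for all 7 genes, and 5 of them had a single promoter entry. The windows of Cd81, Cd9 and Cd53 end at the edge of the annotated locus. Those of Cd37 and Cd63 lie inside the locus, so they do not precede the outer end of the gene. The 250 bases before the start are shown for 3 genes, picked after their values were seen. They are Cd81 and Cd9, for which both knockouts stood above both controls as deposited, and Cd53, for which both stood below. For Cd9 and Cd53 this did not hold under every scaling. Capitals mark GGGCGG, the GC box bound by Sp1-family factors, on either strand.
Cd81 (chr7:143052500-143052749, plus strand): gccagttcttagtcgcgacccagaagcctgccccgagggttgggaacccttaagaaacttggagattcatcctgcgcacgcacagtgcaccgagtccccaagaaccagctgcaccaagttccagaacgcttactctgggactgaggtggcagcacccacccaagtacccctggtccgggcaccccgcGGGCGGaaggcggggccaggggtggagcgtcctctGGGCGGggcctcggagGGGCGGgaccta
Cd9 (chr6:125494761-125495010, minus strand): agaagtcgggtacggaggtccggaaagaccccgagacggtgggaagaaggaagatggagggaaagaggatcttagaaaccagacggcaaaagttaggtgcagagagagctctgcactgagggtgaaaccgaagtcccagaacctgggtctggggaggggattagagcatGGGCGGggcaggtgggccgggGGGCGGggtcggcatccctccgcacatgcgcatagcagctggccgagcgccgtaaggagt
Cd53 (chr3:106790150-106790399, minus strand): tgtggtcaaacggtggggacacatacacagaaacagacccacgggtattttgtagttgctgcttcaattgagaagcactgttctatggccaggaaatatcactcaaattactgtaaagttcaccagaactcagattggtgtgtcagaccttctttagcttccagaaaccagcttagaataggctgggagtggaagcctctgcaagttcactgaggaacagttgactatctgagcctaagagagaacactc
The Cd81 window held 3 GC boxes, at 63, 28 and 12 bases before the start, and the Cd9 window held 2, at 81 and 60 bases before it. The Cd53 window held 0. Of the other windows with a single entry, both inside the locus, that of Cd37 held 1 and that of Cd63 held 0. Of 32851 promoter windows of the same length, 32.7% held at least 1 GC box. G and C made up 65.6% of the Cd81 window, 61.6% of the Cd9 window and 45.2% of the Cd53 window. Both strands of the 5 windows with a single start were also searched for TATAAA, for TGANTCA (the AP-1 site), for the NF-kB consensus and for GAGGAAGT (a core of the myeloid factor PU.1). The first 3 motifs had 0 matches in the 5 windows, against 12.4%, 6.75% and 7.25% of all windows. GAGGAAGT, held by 2.44% of all windows, had 1 match, on the reverse strand of the Cd37 window. No matches overlapped one another. These are matches of letters, not binding sites, and a link between GC boxes and the direction of a gene was not tested.

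Cd81 (chromosome 7, 143052750 to 143067930, GRCm38.p6) showed the widest separation of the groups among the members without overlap. It read 825 and 762 FPKM in control 1 and 2 and 6093 and 2568 FPKM in knockout 1 and 2. Both knockouts stood above both controls, with the lower knockout at 3.11 times the higher control. The controls lay within 1.08-fold of each other, whereas the knockouts differed by 2.37-fold. The difference on the log2(FPKM + 1) scale was 2.32 ± 0.46 (SE from limma, n = 2 per group), against a median of 0.94 for all 7823 genes tested and -0.11 for the 1177 genes whose mean reached 100 FPKM. Among those 1177 genes, Cd81 had the 112th largest difference, and 20.4% had a difference of 1 or more. By rank in the whole table, Cd81 stood at places 205 and 213 in the controls and at 13 and 30 in the knockouts. The annotated loci of Cd81, Cd9, Cd151 and Cd82 overlap noncoding RNA genes whose reads cannot be told apart there without strand.

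Cd9 had control values of 1615 and 1282 FPKM and knockout values of 2837 and 2075. The groups did not overlap, but the lower knockout was only 1.29 times the higher control, close to the 1.26-fold gap between the controls. The log2 difference was 0.75 ± 0.32 (SE, n = 2 per group), which was 0.185 below the median of all genes tested. It lay above the median of 0.183 for genes with a value of 1 FPKM or more in each group. Among the 1177 genes whose mean reached 100 FPKM, with a median of -0.11, Cd9 had the 305th largest difference. Its rank was 78 and 104 for the control libraries against 30 and 44 for the knockout ones. The sign depended on the scaling: after median ratio scaling the difference of Cd9 was -0.13 and the groups overlapped.

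Cd151 and Cd82, the other members of the cell surface, were near the floor. Cd151 had control values of 0.04 and 0 FPKM, with 0 for knockout 1 and 28.2 for knockout 2, so that a single library held nearly all of its signal. Its log2 difference of 2.41 ± 2.06 (SE, n = 2 per group) rested on knockout 2 alone. Cd82 read 0.21 FPKM in knockout 1 and is listed at 0 in the other 3 libraries. It was the 1 member below the minimum mean of 1 FPKM and was not compared.

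**Figure D1:**
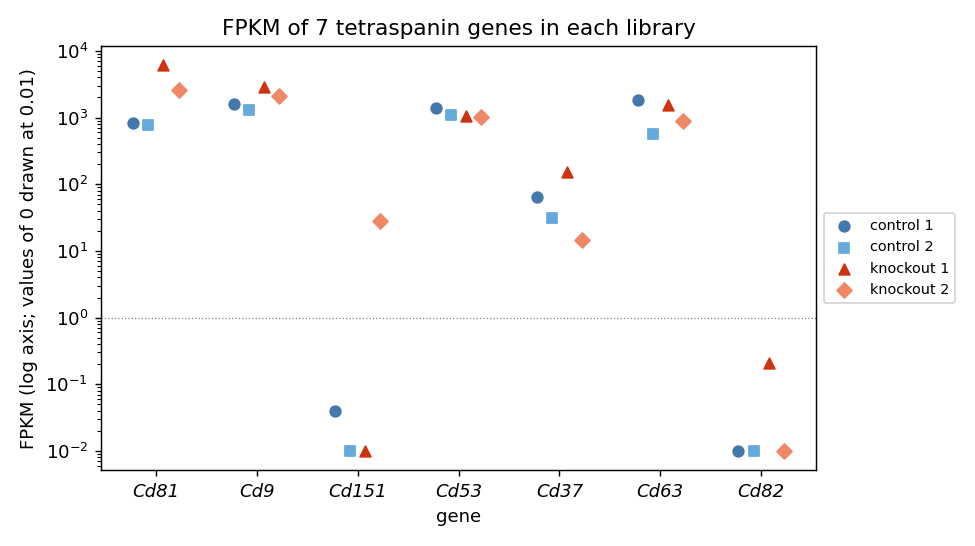
FPKM (log axis, values of 0 drawn at 0.01) of the 7 tetraspanin genes, 1 point per library, with a dotted line at 1 FPKM. Cd81 reads 762 to 825 in the controls and 2568 to 6093 in the knockouts, Cd9, Cd53 and Cd63 are at 566 or more in every library, and Cd151 and Cd82 are near 0 except Cd151 in knockout 2.

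Of the leukocyte tetraspanins, Cd53 had similar FPKM in the 4 libraries as deposited. It had control values of 1392 and 1098 FPKM and knockout values of 1043 and 1028. Both knockouts lay below both controls, by a gap smaller than that between the controls, and the log2 difference was -0.26 ± 0.36 (SE, n = 2 per group). The difference was -1.14 after median ratio scaling, and after quantile normalization it was 0.049 and the groups overlapped. The rank of Cd53 stayed between 100 and 128 in all 4 libraries.

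Cd37, the other leukocyte member, was far lower and, of the members above 1 FPKM in all libraries, varied most between knockouts. It had control values of 64.0 and 31.6 FPKM, with 151 for knockout 1 and 14.6 for knockout 2. The knockouts held both the highest and the lowest value, 10.4-fold apart, and the log2 difference was 0.08 ± 1.48 (SE, n = 2 per group). The sign turned after median ratio scaling (-0.77) and after quantile normalization (-0.36), and also without control 2 (-0.41) or knockout 1 (-1.56).

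Cd63, the late endosomal and lysosomal member, had control values of 1822 and 566 FPKM and knockout values of 1518 and 876. The groups overlapped, and the controls differed from each other by 3.22-fold. The group means were 1194 ± 889 and 1197 ± 454 FPKM (SD, n = 2 each), with a log2 difference of 0.18 ± 0.64 (SE), or -0.70 after median ratio scaling, -0.66 without control 2 and -0.21 without knockout 1. The mouse genome holds processed pseudogenes of Cd63 and Cd9, and how the authors counted reads shared with them is not stated.

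Of the 6 members compared, 2 stood above both controls in both knockouts, and 1 stood below. Of all tested genes, 27.8% stood above and 11.4% below. Among genes whose mean reached 100 FPKM, the level of Cd81, Cd9, Cd53 and Cd63, these shares were 19% and 26.5%. The median log2 difference of the 6 members was 0.47, against 0.94 for all genes tested. Of the 7823 genes, 2399 had both controls under 1 FPKM and 790 had both knockouts under 1 FPKM. Outside these genes the median was 0.184 for 5 members and 0.183 for 4634 genes. In limma's moderated test across all 7823 genes with Benjamini-Hochberg adjustment, the calls at an adjusted p under 0.05 were 0% of genes higher and 0% lower, and 0 members. An unadjusted p under 0.05 was reached by 475 genes on the higher side, Cd81 among them, and by 127 on the lower side. In the same test Cd81 was called after quantile normalization (limma adjusted p = 0.0202), where 2 of all genes were called higher and 4 lower. The difference of Cd81 was 2.94 without knockout 2 and 1.69 without knockout 1. In those fits the knockout library that is left is taken to vary as much as the control libraries do.

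**Figure D2:**
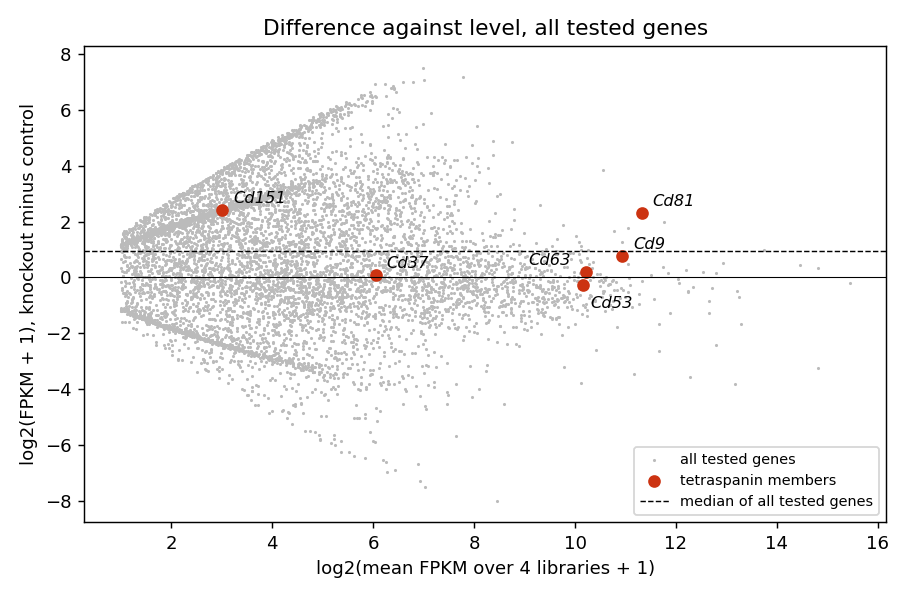
Difference of log2(FPKM + 1), knockout minus control, against log2 of the mean FPKM over the 4 libraries + 1. Grey points are the 7823 tested genes, red points the 6 tetraspanin genes compared, and the dashed line is the all-gene median of 0.94. Cd81, at 2.32, lies above this line, while Cd9 at 0.75, Cd63 at 0.18 and Cd53 at -0.26 lie below it.

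Ratios between members within a library do not change when a library is multiplied by 1 factor, as in rescaling to the same sum or median ratio scaling, but quantile normalization can change them. The ratios given are of FPKM as deposited. Cd81 stood below Cd9 in both controls, at 0.511 and 0.595 times its FPKM, and above it in both knockouts, at 2.15 and 1.24 times. Relative to Cd53, Cd81 read 0.593 and 0.694 for the control libraries against 5.84 and 2.50 for the knockout ones. Cd9 relative to Cd53 read 1.16 and 1.17 in the controls, almost the same value, and 2.72 and 2.02 in the knockouts. These 3 ratios separated the groups. Cd63 relative to Cd53 did not, where the controls stood at 1.31 and 0.515 and the knockouts at 1.46 and 0.852. A ratio shows unequal change of its 2 genes, not which of them differed.

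The order of the members by FPKM differed between libraries. In control 1 it was Cd63, Cd9, Cd53, Cd81 and Cd37, and in control 2 it was Cd9, Cd53, Cd81, Cd63 and Cd37. In both knockouts Cd81 came first and Cd9 second. In knockout 1 the order below them was Cd63, Cd53 and Cd37, and in knockout 2 it was Cd53, Cd63 and Cd37. Across groups, neighbours such as Cd53 and Cd63 did not differ beyond the spread of Cd63. Cd81 made up 14.4% and 20.4% of the summed FPKM of the 7 genes in the control libraries and 52.3% and 39% in the knockout ones. Cd53 made up 24.3% and 29.4% in the control libraries and 8.96% and 15.6% in the knockout ones. The 7 genes together took 0.590% and 0.433% of all FPKM in the control libraries and 1.41% and 0.812% in the knockout ones.

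**Figure D3:**
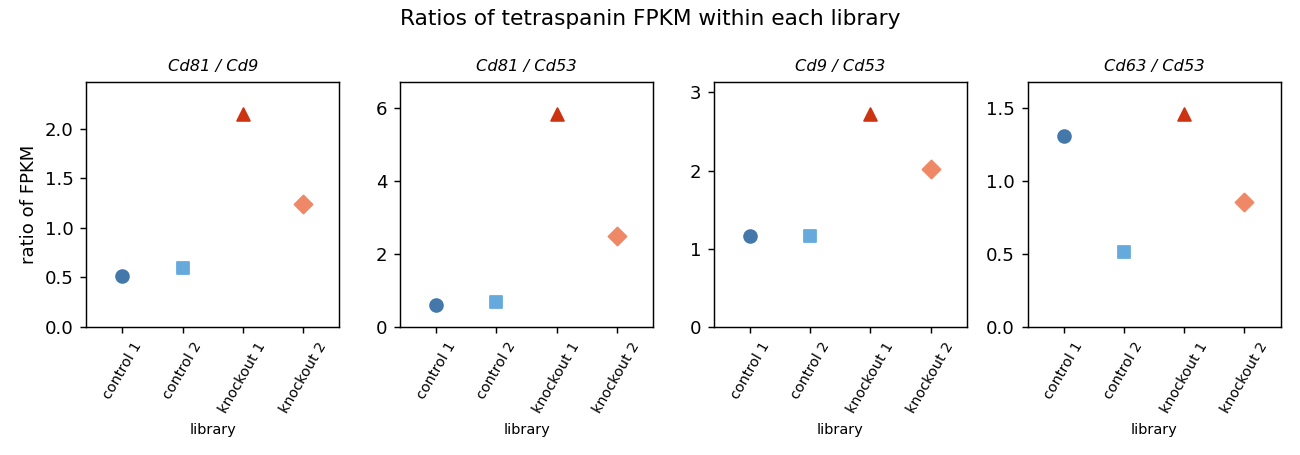
Ratio of FPKM of 2 tetraspanin genes within each library (linear axes from 0, 1 point per library). Cd81 / Cd9, Cd81 / Cd53 and Cd9 / Cd53 are higher in both knockouts than in both controls, whereas the Cd63 / Cd53 ratios of the groups overlap.

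The scaling of the libraries decided the sign of 4 of the 6 members compared. The median of all tested genes was 0.94 as deposited, 1.06 after rescaling to the same sum, 0.32 after median ratio scaling and 0.12 after quantile normalization. The difference of Cd81 was 2.48, 1.43 and 2.65 under the last 3. Relative to the all-gene median, Cd81 stood at 1.38 as deposited, 1.12 after median ratio scaling and 2.53 after quantile normalization. Cd9 relative to the same median stood at -0.19, -0.45 and 0.83, so its side of that median depended on the scaling. Cd53 stood at -1.19, -1.45 and -0.07, below the median each time.

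**Figure D4:**
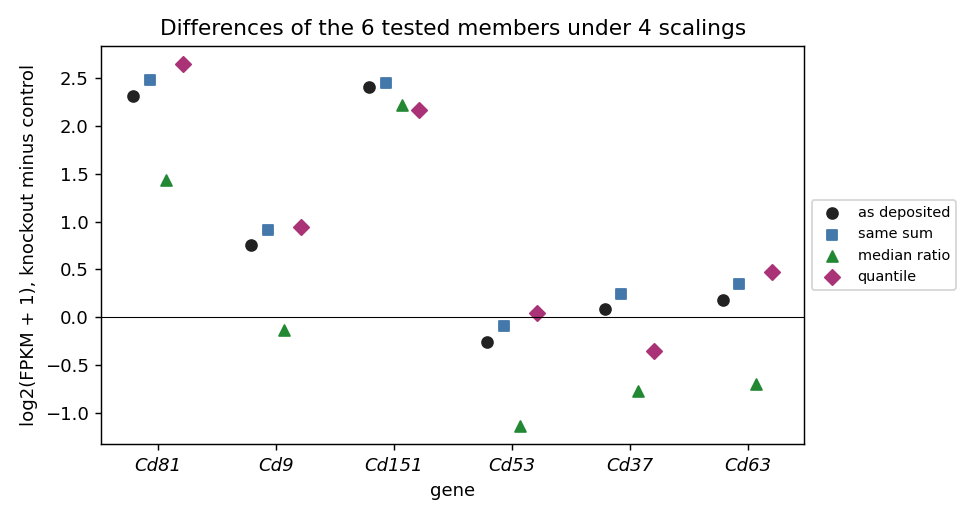
Difference of log2(FPKM + 1), knockout minus control, for the 6 members compared, as deposited and after 3 other scalings (1 point per scaling). Cd81 and Cd151 lie above 0 under all 4; Cd9, Cd37 and Cd63 fall below 0 after median ratio scaling, Cd37 also after quantile normalization, and Cd53 is at 0.049 after quantile normalization and below 0 otherwise.

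Of 24 other tetraspanin genes, 20 were in the table and 13 had a mean of at least 1 FPKM. Both knockouts stood above both controls in 8 of the 13 and below in 0, with a median log2 difference of 2.47, against 27.8%, 11.4% and 0.94 for all genes. Of the 13, 5 reached the minimum mean through the knockouts alone, with both controls under 1 FPKM, and 3 of the 8, Tspan32, Tspan12 and Tspan5, were among these 5. Genes that pass in this way cannot stand below the controls. Among the 7 genes with a value of 1 FPKM or more in each group, 5 stood above and 0 below, where 16.9% and 13.6% of the 4634 such genes did. None of the 13 passed the test (smallest limma adjusted p = 0.657; 0 at an unadjusted p under 0.05), and in 6 of them 1 library held over 90% of the summed FPKM. Tspan13 was the highest, with 92.9 and 30.5 FPKM for controls against 547 and 152 for knockouts. Tspan7, a tetraspanin known from neurons and other brain cells, had control values of 15.6 and 0.68 FPKM and knockout values of 249 and 41.1. In both genes knockout 1 was the highest library, as for Cd81.

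Tspan31 had control values of 0.45 and 59.8 FPKM and knockout values of 165 and 142. Its locus overlaps that of the cell cycle kinase gene Cdk4, and reads from the overlap cannot be told apart without strand. Tspan3 had control values of 129 and 0.53 FPKM and knockout values of 185 and 31.9, so its groups overlapped. Prph2 and Rom1 encode the peripherin and ROM1 tetraspanins that shape photoreceptor outer segment discs. Prph2 had control values of 12.5 and 11.0 FPKM and knockout values of 69.7 and 81.2. Rom1 read 17.5 in each control and 127 and 88.4 FPKM in the knockouts. These photoreceptor tetraspanins had low, nearly equal values in the controls and stood higher in both knockouts.

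**Figure D5:**
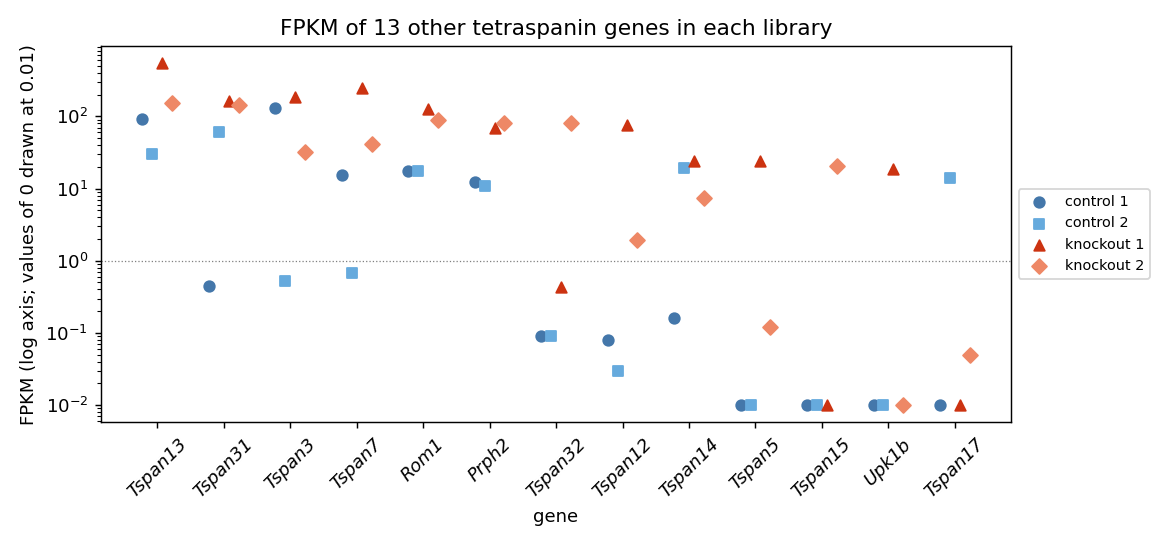
FPKM (log axis, values of 0 drawn at 0.01) of the 13 other tetraspanin genes whose mean reached 1 FPKM, 1 point per library, ordered by mean, with a dotted line at 1 FPKM. In 8 genes, Tspan13, Tspan31, Tspan7, Rom1, Prph2, Tspan32, Tspan12 and Tspan5, both knockouts lie above both controls, and Tspan32, Tspan5, Tspan15, Upk1b and Tspan17 exceed 1 FPKM in a single library.

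Markers of other retinal cells also differed between these libraries. Of 16 rod markers, which include Prph2 and Rom1, 13 stood above both controls and 0 below, where 27.8% and 11.4% of all genes did. None passed (smallest limma adjusted p = 0.559), and 6 of the 16 had an unadjusted p under 0.05, all on the higher side. Their summed FPKM was 3005 and 4103 for the control libraries against 7307 and 11962 for the knockout ones. The sum was highest in knockout 2, whereas Cd81 was highest in knockout 1. Of 8 Müller glia and astrocyte markers compared, 1, Glul, stood above both controls and 1, Vim, below. Their summed FPKM, most of it Apoe, which microglia also express, was 5172 and 5400.3 for the control libraries against 10213 and 2281 for the knockout ones, and Gfap and Kcnj10 were under 1 FPKM everywhere. Glul, the glutamine synthetase gene of Müller glia, had control values of 84.6 and 318 FPKM and knockout values of 774 and 599. Vim, the intermediate filament gene vimentin, had control values of 87.8 and 29.1 FPKM and knockout values of 1.78 and 5.80. Endothelial markers summed to 0.05 and 0.50 FPKM for the control libraries against 15.9 and 8.33 for the knockout ones, nearly all of it Flt1, while Pecam1 and Vwf were under 1 FPKM in all 4. The part of rod and glial RNA in the tetraspanin values was not tested.

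Of 9 monocyte markers, 5 were compared, and 2, Ccr2 and Itga4, stood below both controls and 0 above, where 11.4% and 27.8% of all genes did. The other 3, Plac8, S100a4 and S100a6, overlapped between groups, each with a control at or near 0, and none of the 5 passed (smallest limma adjusted p = 0.559; 1 at an unadjusted p under 0.05). In 3 of the 5, Itga4, Plac8 and S100a6, both knockouts were under 1 FPKM. These passed the minimum mean through the controls alone and could not stand above. The summed FPKM of the list was 405 and 466 for the control libraries against 52.1 and 1.43 for the knockout ones. In knockout 1, S100a4 alone gave 49.75 FPKM of this sum. Monocytes, like microglia, are known to express Cd53, Cd37, Cd63 and Cd9. Of 7 lymphocyte markers, Cd3d and Ms4a1 were under 1 FPKM in every library, while Cd79b had control values of 0.25 and 105 FPKM and knockout values of 119 and 196. The part of monocyte RNA in the tetraspanin values was not tested.

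Proteins that tetraspanins are known to bind were described through a list of 28 genes, of which 27 were in the table and 22 were compared. Both knockouts stood below both controls in 8 and above in 3, with a median log2 difference of -0.82, against 11.4%, 27.8% and 0.94 for all genes. None passed (smallest limma adjusted p = 0.559), and 3 had an unadjusted p under 0.05, all lower. Those 3 were Ifitm3 and the MHC class II genes H2-Aa and H2-Ab1. In 1 of the 8, Itga4, both knockouts were under 1 FPKM, so that it could not stand above. The others of the 8, which include Ifitm3, H2-Aa and H2-Ab1, each had a mean of at least 100 FPKM. Of all genes at that level, 26.5% stood below and 19% above, with a median of -0.11, so the all-gene shares are an unlike measure for them. For the 17 partner genes with a value of 1 FPKM or more in each group, the median was -0.38, against 0.183 for all such genes. Ifitm3, an interferon-induced membrane protein gene of the family that binds CD81, had control values of 2648 and 1815 FPKM and knockout values of 820 and 161. H2-Aa had control values of 1470.2 and 2321 FPKM and knockout values of 597 and 29.8. Both genes were lowest in knockout 2.

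Ifitm2 had control values of 575 and 678 FPKM and knockout values of 336 and 352, with no overlap of groups. Igsf8, which encodes EWI-2, the immunoglobulin superfamily partner of CD81 and CD9, was near the floor and read at most 2.00 FPKM. Itgb1, the integrin beta chain bound by CD9, CD81 and CD151, had control values of 12.4 and 0.79 FPKM and knockout values of 29.8 and 51.7. Adam10, a protease whose traffic depends on a subgroup of tetraspanins that includes Tspan14 and Tspan15, had control values of 206 and 198 FPKM and knockout values of 97.1 and 141.

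CD81, CD9 and CD63 are sorted into extracellular vesicles, and a list of 20 genes for vesicle formation gave 14 compared. Of these, 4 stood above and 2 below both controls, with a median log2 difference of 0.88, against 27.8%, 11.4% and 0.94 for all genes. In 3 of the 4 both controls were under 1 FPKM, so that these passed the minimum mean through the knockouts alone and could not stand below. The other was Rab11a. For the 10 vesicle genes with a value of 1 FPKM or more in each group, the median was 0.049, against 0.183 for all such genes. None of the 14 passed (smallest limma adjusted p = 0.698; 0 at an unadjusted p under 0.05). Sdcbp, which encodes syntenin, the adaptor that binds CD63, had 1704 and 1870.4 FPKM for controls against 1675 and 1575 for knockouts, a log2 difference of -0.14 as deposited and -1.02 after median ratio scaling. Tsg101, of the sorting complex ESCRT-I, had control values of 303 and 238 FPKM and knockout values of 126 and 161. Chmp2a overlapped between groups, with 415 and 659 FPKM for controls against 175 and 525 for knockouts, whereas Rab11a read 167 and 276 for the control libraries against 297 and 369 for the knockout ones.

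Of 9 genes of the late endosome and lysosome membrane, where CD63 resides, 2 stood above both controls and 0 below, with a median log2 difference of 0.70, again against 27.8%, 11.4% and 0.94. In 1 of the 2, Npc1, both controls were under 1 FPKM. For the 7 of these genes with a value of 1 FPKM or more in each group, the median was -0.29, against 0.183 for all such genes. None of the 9 passed (smallest limma adjusted p = 0.698; 0 at an unadjusted p under 0.05). Cd68, a macrophage lysosomal glycoprotein gene, had control values of 851 and 363 FPKM and knockout values of 1057 and 917, and like Cd63 was lower in control 2 than in control 1. Lamp2 was instead higher in control 2, at 268 and 934 FPKM, with 474 and 290 in the knockouts. Lamp1 had control values of 30.9 and 86.3 FPKM and knockout values of 49.4 and 144. Ap3s1, a subunit of the AP-3 adaptor that carries CD63 to lysosomes, had control values of 175 and 124 FPKM and knockout values of 149 and 75.6.

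The genes most like Cd81 were sought among the 1176 others whose mean reached 100 FPKM, by the distance between their 4 values of log2(FPKM + 1) after centring each gene on its mean. The nearest 4 were Leprot (distance 0.255), Bsg (0.290), Rnaset2b (0.414) and Rnase4 (0.637). Leprot, an endosomal membrane protein gene that shares its start with the leptin receptor gene, had control values of 61.6 and 45.1 FPKM and knockout values of 431 and 163. Bsg, the membrane glycoprotein basigin, had control values of 64.4 and 54.8 FPKM and knockout values of 399 and 220. Rnaset2b and Rnase4 encode ribonucleases. Rnaset2b has a near-identical copy in the mouse genome, so its reads may be split between them. All 4 were highest in knockout 1, then knockout 2, control 1 and control 2, as Cd81 was. With 4 libraries this likeness describes these samples only. Among the members, Cd9 was the nearest to Cd81, at place 96 with a distance of 1.67, and Cd63 and Cd53 followed at places 305 and 439.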

How the data were processed

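RNA-seq was made from 4 libraries of sorted retinal microglia, 2 control and 2 knockout, by SMART-Seq II amplification and transposon-based library construction, per the labels' protocols. The table the authors deposited holds 1 FPKM value per gene and library to 2 decimals. The submitters' processing notes name the build mm10; the aligner, quantifier and annotation have no name given in the sources used here. Columns were matched to samples by title. Among genes at 0.1 to 1 FPKM in 2 libraries, the most common ratio held 6.31% to 8.92% of genes, so read counts were not recovered and no counting interval was given.

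Genes whose mean reached 1 FPKM were compared as log2(FPKM + 1) by limma's moderated test (limma 3.58.1, R 4.3.3, trended variance, 2 residual degrees of freedom, Benjamini-Hochberg, 0.05). Fold changes on this scale understate low genes. The code was tested on simulated data. Members and lists were chosen with earlier results of these data known. Named were all members, the 6 other tetraspanins and the 4 genes per further list with the highest mean, any list gene with an unadjusted p under 0.05, up to 2 markers per cell type, and the 5 genes nearest to Cd81. Some genes this rule names are left out. Counts of list genes by whether both libraries of a group were under 1 FPKM were added after the values were seen. Named outside this rule, after their values were seen, were Tspan32, Tspan12, Tspan5, Tspan15, Upk1b, Tspan17, Itgb1, Adam10, Igsf8, Npc1, Itga4, S100a4, S100a6, Vim, Gfap, Kcnj10, Pecam1, Vwf, Cd3d, Ms4a1, Map3k7, Tssc4, Cdk4 and the genes called under alternatives. Against 27.8% above and 11.4% below for all genes, and with 0 genes called in any, the other cell type lists were bipolar (3 of 4 compared genes above both controls, 0 below), amacrine and ganglion (3 of 4, 0 below), cone (2 of 6, 1 below), pericyte (2 of 2, 0 below), perivascular macrophage (0 of 8, 2 below), neutrophil (1 of 1, 0 below) and retinal pigment epithelium (0 of 1, 0 below). Of the genes above, 2 bipolar, 3 amacrine and ganglion, 2 cone and 2 pericyte genes had both controls under 1 FPKM and could not stand below. In 1 of the 2 perivascular macrophage genes below, both knockouts were under 1 FPKM, so that it could not stand above. Coordinates and promoters are from RefSeq GRCm38.p6, in which 15470 of 15586 gene identifiers were found. Alternatives were other pseudocounts (0.1, 0.5 and 5 FPKM), filters (none, or means of 5 or 100 FPKM), scalings and variance settings, a replicate block and each library left out. Figures were drawn with matplotlib 3.10.9.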

Additional observations from a re-analysis of the deposited data

How the results depend on the processing

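Of 93 recomputed log2 differences of the 6 members compared, 81 kept their direction and stayed uncalled. Many of these kept it by design. The filters, the variance settings and the replicate block can change a call but not a difference. Only other pseudocounts, scalings and left-out libraries could change a direction. Cd81 kept its direction in all, from 1.43 (median ratio scaling) to 2.94 (without knockout 2), with 1.69 without knockout 1. With all 4 libraries it was called after quantile normalization (2.65) and with the replicate block (2.32, limma adjusted p = 5.75e-06). Over the other alternatives with all 4 libraries, its limma adjusted p ran from 0.329 to 0.688. After median ratio scaling the values were -0.13 for Cd9, -0.70 for Cd63 and -0.77 for Cd37, and after quantile normalization -0.36 for Cd37 and 0.049 for Cd53. Leaving out a library turned Cd63 to -0.66 (without control 2) and -0.21 (without knockout 1), its range being -0.66 to 1.03, and Cd37 to -0.41 and -1.56 in the same fits, its range being -1.56 to 1.73. Cd9 above both controls was lost after median ratio scaling, which left 1 member above, and quantile normalization left 0 below; without control 2 or knockout 1 there were 2 below (1 to 2 over the fits without a library). The cause was not tested.

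Over all genes the test called 2 higher and 4 lower after quantile normalization and 15 higher and 20 lower with the replicate block. The correlation of same-numbered libraries' deviations was 0.017, and no label pairs the numbers. The block leaves 1 residual degree of freedom; it called 1 member, Cd81, and 4 partners, Ifitm3, H2-Aa, H2-Ab1 and H2-Eb1. The 4 fits without a library called 0 to 1306 genes higher and 0 to 5 lower, with 697 and 4 without knockout 1 and 1306 and 5 without knockout 2. They called 0 to 1 member, 0 to 2 other tetraspanins, 0 to 2 partners, 0 to 2 vesicle genes and 0 to 1 late endosome gene. Quantile normalization called 1 member, Cd81. Among 282 recomputed differences of the other named genes, which again include alternatives that cannot change a difference, 11 changed sign. These were Tspan3 (-0.73, range over the fits without a library -0.73 to 5.68) and Lamp2 (0.46, range -1.33 to 0.46) without control 2, Chmp2a (0.0041, range -1.58 to 0.0041) without knockout 1, Ap3s1 (0.023, range -0.95 to 0.023) and Lamp1 (-0.067) without knockout 2, Lamp1 (-0.03, range -0.067 to 1.46) without control 1, Sdcbp after quantile normalization (0.0088) and rescaling to the same sum (0.026), and Rab11a (-0.26), Lamp1 (-0.18) and Cd68 (-0.058) after median ratio scaling. With 2 libraries per group and unknown depth, the precision rests on these 4 libraries.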

Other observations

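The genes beside Cd81 on chromosome 7 (143052750 to 143067930, GRCm38.p6) were read after the values of Cd81 were seen. Tspan32, the next tetraspanin gene on the chromosome (143004907 to 143019486), read 0.09 FPKM in each control, 0.43 in knockout 1 and 79.9 in knockout 2, so its highest library was not that of Cd81. Tssc4, the next gene on the other side, had control values of 1.17 and 0.91 FPKM and knockout values of 5.66 and 3.84. For Tssc4, as for Cd81 and 27.8% of all tested genes, both knockouts stood above both controls. Tssc4 was highest in knockout 1. At the limits of these levels neither gene passed (limma adjusted p = 0.698 for both).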
